A study of Mus musculus with 18 samples.

Results

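Chemokine ligands are small secreted proteins that attract leukocytes through G protein-coupled receptors, and their genes were followed here in whole MC38 tumors treated with a MEK inhibitor, an agonist anti-CD40 antibody or both. Members were all genes with a symbol that starts with Ccl or Cxcl followed by a digit, with Cx3cl1 and Xcl1 added. By this rule 33 chemokine ligand genes were measured, of 18193 genes in all that had a probe set (a set of array oligos read as 1 value) with a single gene symbol. The mouse annotation GRCm38.p6 lists 44 such symbols, of which 39 are protein coding. Another 7 of them (Ccl19, Ccl19-ps1, Ccl21a, Ccl21b, Ccl21c, Ccl21d and Ccl27b) were read only by probe sets shared with other symbols, and 4 (Ccl16-ps, Ccl19-ps2, Ccl19-ps3 and Ccl26) were in no probe set list.

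MC38 is a mouse colon carcinoma line, injected here subcutaneously into C57BL/6-Ly5.1 mice that were 6 to 12 weeks old at injection. Control mice (n = 5) received vehicle with a control IgG, and anti-CD40 mice (n = 4) received vehicle with the CD40 antibody, a mouse IgG1 that activates CD40 on antigen-presenting cells. MEKi mice (n = 5) received GDC-0623, an inhibitor of the kinase MEK, daily at 30 mg/kg with control IgG, and MEKi/CD40 mice (n = 4) received GDC-0623 with the CD40 antibody. Antibody was injected on treatment days 3, 5 and 7 and again 1 day before sampling, and tumors were taken on day 22 after inoculation. Each of the 18 arrays holds RNA of a whole tumor piece, so that fewer cells of a type and less RNA per cell cannot be told apart in any value below.

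CXC and CC chemokines differ in the spacing of their first cysteines, and each binds only some of the receptors. CXCR2 ligands draw neutrophils, CXCR3 ligands draw activated T cells and NK cells, CCR2 ligands draw monocytes, and CXCL12, CXCL13, CCL19 and CCL21 place cells within lymphoid tissue. Many of these genes are transcribed within hours of a signal through NF-κB or interferon, by tumor cells, fibroblasts, endothelium and macrophages alike.

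Values are deposited log2 levels, on which a difference of 1 is a doubling, and they are compared only within a probe set. A value below 3 is called at the floor, because 34.5% of the table equals its lowest entry, and a fold against a group wholly at the floor is given as "at least". Groups were compared 2 at a time with limma on all 45037 probe sets, and a gene was called at an adjusted p under 0.05.

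Several tumors stood apart before any comparison. MEKi/CD40 tumor 3 had the highest level of its group for 22 of the 26 ligands that were above the floor in that group, and also the highest mean of the macrophage list (12.04, against 10.67 to 11.12 in the other 3) and of the T cell list (6.64, against 5.22 to 6.01). Adipocyte markers were highest in MEKi/CD40 tumors 2 and 4 and in anti-CD40 tumor 3 (mean log2 level 11.77, 7.90 and 6.61), and skeletal muscle markers reached 8.71 in MEKi/CD40 tumor 4. The titles carry tumor numbers in a series under 7800 (controls 1 and 2, MEKi 1 and 2 and all tumors given the antibody) and one above it (controls 3 to 5 and MEKi 3 to 5), and what the series stand for is not given. Of 7 epithelial genes taken as markers of the origin of MC38, 6 (Epcam, Krt8, Krt18, Krt19, Cdx2 and Vil1) were at the floor on all 18 arrays.

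What did the treatments do to the ligands as a family? Of the 33 ligands, 19 were above the floor in every tumor, 8 in some, and 6 (Ccl1, Ccl20, Ccl24, Ccl27a, Cxcl15 and Cxcl17) in none. With MEKi/CD40 against control 7 ligands rose (Cxcl1, Cxcl5, Ccl6, Ccl8, Ccl11, Cxcl12 and Cxcl13) and 0 fell, beside a background of 7.65% of all genes called higher and 19.7% called in either direction. The median difference over the 33 ligands was 0.66, where that over all genes was 0.

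MEKi alone moved 5 ligands against control. Cxcl1, Cxcl12 and Cx3cl1 rose, and Ccl2 and Cxcl14 fell, where 6.08% of all genes were called higher, 5.09% lower and 11.2% in either direction. Anti-CD40 alone gave 0 calls by limma, both among the ligands and over all genes (0%), while 6 ligands and 1127 genes had an unadjusted p under 0.05. The median difference of the ligands was 0.01 with MEKi and 0.055 with anti-CD40, beside 0 over all genes in both.

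Between treated groups, 5 ligands rose with MEKi/CD40 against anti-CD40 (Cxcl1, Cxcl5, Ccl6, Ccl11 and Cxcl12, background 5.84% higher, 14.9% either way). Against MEKi alone only Ccl6 was called higher in MEKi/CD40 (0.978% higher, 2.83% either way). MEKi against anti-CD40 gave 1 ligand higher, Cx3cl1 (background 4.08%), and 4 lower, Cxcl9, Cxcl13, Cxcl14 and Cxcl16 (3.09%, 7.17% either way). All anti-CD40 tumors have title numbers under 7800 and 3 of 5 MEKi tumors above, and with that series as a block 0 of these 5 ligands were called by limma. The interaction (MEKi/CD40 minus MEKi, less anti-CD40 minus control, on the log2 scale) called Ccl6 and Ccl9, both positive (0.973% positive, 2.47% either way). Comparisons that share a group are not independent of each other.

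**Figure D1:**
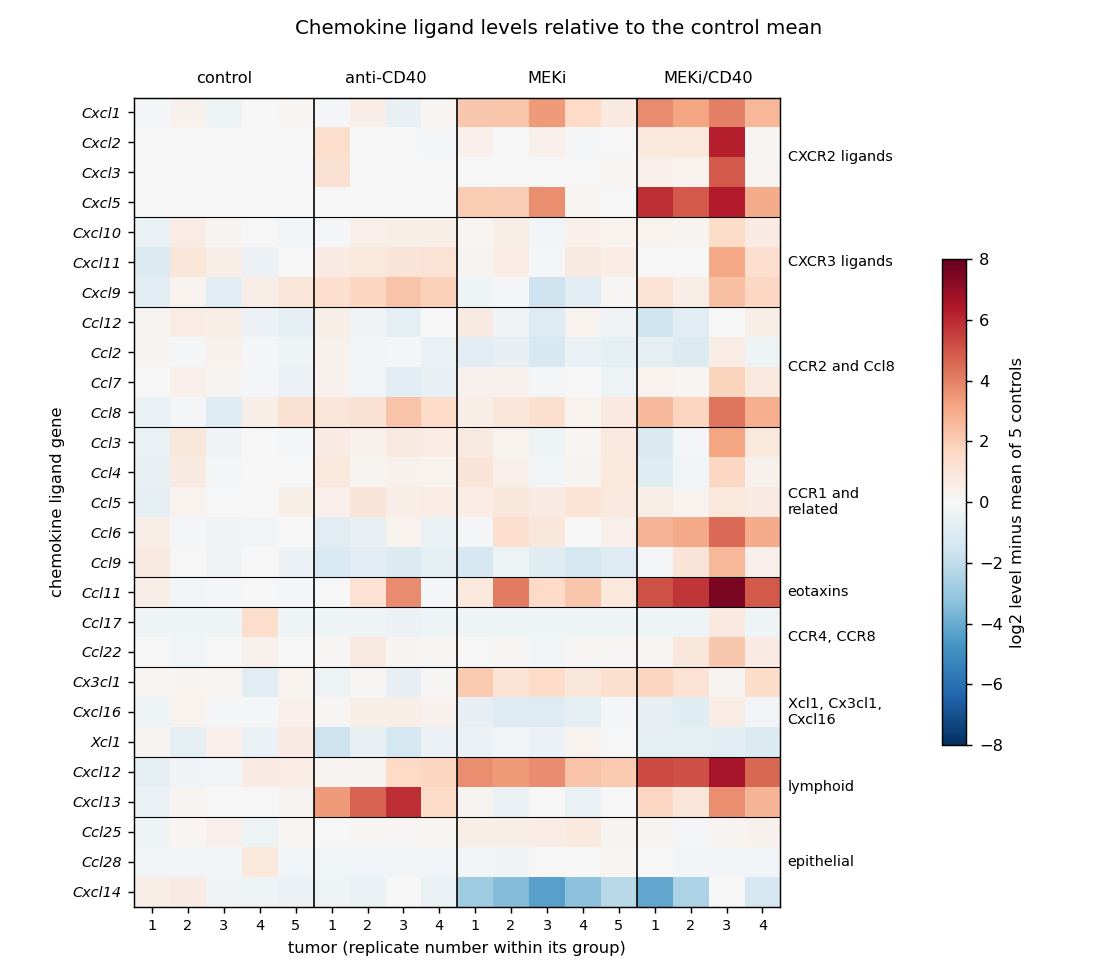
Log2 level minus the mean of the 5 controls (color) for the 27 ligands above the floor in at least 1 tumor (rows, grouped by receptor or role) in each of the 18 tumors (columns, by group). All MEKi/CD40 columns are red for Cxcl1, Cxcl5, Ccl6, Ccl11 and Cxcl12, and Cxcl2, Cxcl3 and Ccl3 are high in MEKi/CD40 tumor 3, while Cxcl14 is blue in every MEKi tumor.

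The map of levels by tumor shows that the ligands did not move as a block. Rows for Cxcl1 and Cxcl12 darken from MEKi to MEKi/CD40, the row for Cxcl13 is red in both groups that received the antibody, and the rows for Ccl5, Ccl25 and Cxcl10 stay pale throughout.

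**Figure D2:**
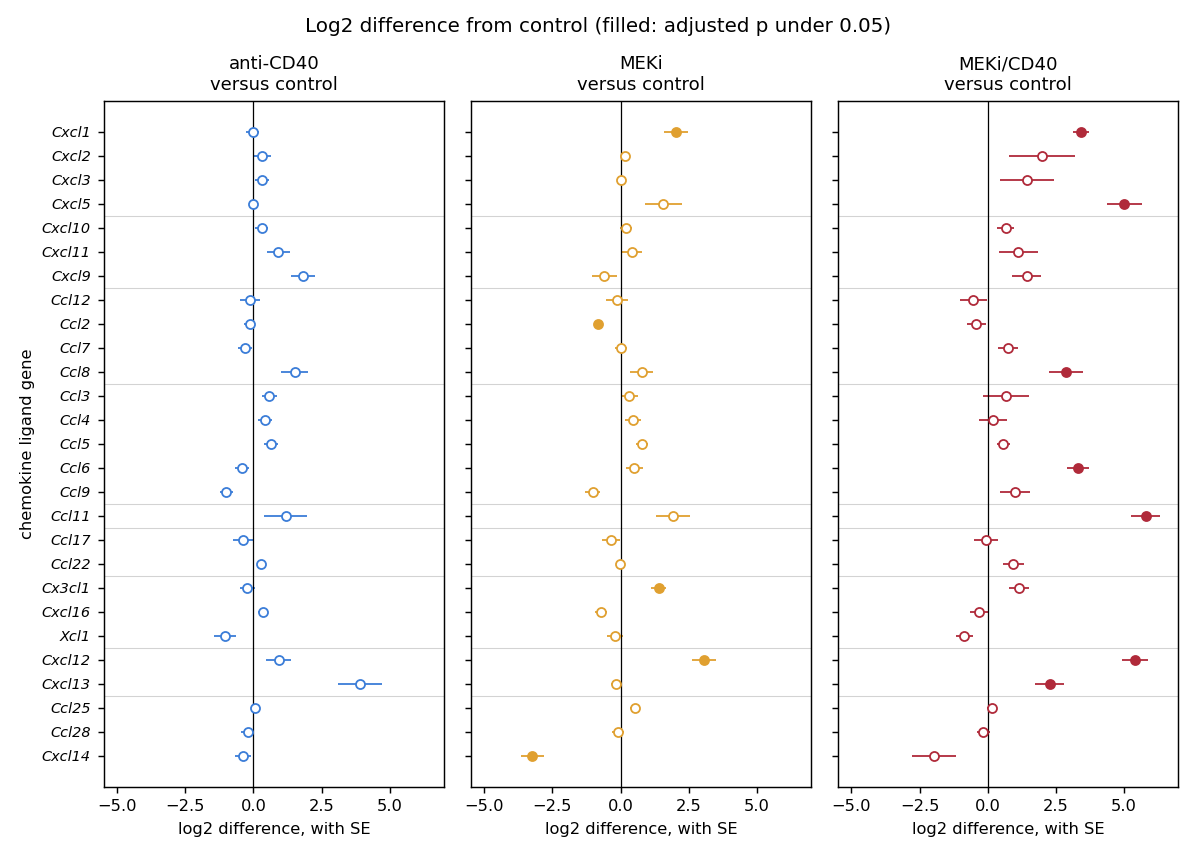
Log2 difference from control (horizontal axes) with its SE for the same 27 ligands (vertical axis) under anti-CD40, MEKi and MEKi/CD40, with filled points at an adjusted p under 0.05. No point is filled for anti-CD40, 5 are filled for MEKi and 7 for MEKi/CD40, the latter between 2.28 and 5.81.

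The plot of differences also shows how unlike their errors were. The SE of a ligand against control reached 1.21 for Cxcl2 with MEKi/CD40, where a single tumor was high, and was 0.30 for Cxcl1 in the same comparison.

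The CXCR2 ligands lie in a cluster on chromosome 5 (Cxcl5, Cxcl3, Cxcl15, Cxcl1 and Cxcl2 in order), and 2 of these 5 rose with MEKi/CD40. Cxcl1 (chr5:90891245-90893121), the main neutrophil attractant of mouse tissue, stood in the 5 controls at a log2 level of 8.34, 8.75, 7.98, 8.37 and 8.59, and in the 4 anti-CD40 tumors at 8.24, 8.91, 7.82 and 8.56. In MEKi it was 10.58, 10.61, 11.79, 10.03 and 9.13, and in MEKi/CD40 12.19, 11.57, 12.43 and 11.09. All MEKi and MEKi/CD40 tumors lay above all controls, and the anti-CD40 tumors overlapped them. Cxcl1 thus rose by 3.41 ± 0.30 (SE) with MEKi/CD40 (10.7-fold, adjusted p = 0.00108) and by 2.02 ± 0.44 with MEKi (4.06-fold, adjusted p = 0.0312). The MEKi call was lost in 7 of 10 runs that each left out 1 tumor (any control, MEKi 1 or MEKi 2, adjusted p up to 0.0776), and the MEKi/CD40 call in 0 of 9. The median difference of the 5 ligands with MEKi/CD40 was 2.01, beside 0 over all genes. That median is the value of Cxcl2, which was not called and, as given below, was high in 1 tumor only.

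Cxcl5 (chr5:90759298-90761625), a neutrophil attractant of epithelium and stroma, was at the floor in all 5 controls and all 4 anti-CD40 tumors (2.16 to 2.19). The 5 MEKi tumors gave 4.21, 4.14, 5.91, 2.31 and 2.18, so that 3 were above the floor and 2 at it. The 4 MEKi/CD40 tumors gave 8.08, 7.06, 8.51 and 5.14, all above every control. That is at least 18.4-fold more than in control (difference 5.02 ± 0.64, adjusted p = 0.00311). With values below 5 raised to 5 the difference was 2.20 and no longer called (adjusted p = 0.0799).

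Cxcl2 and Cxcl3, relatives of Cxcl1 induced early in inflamed myeloid cells, were at the floor in all 5 controls. Cxcl2 in the 4 MEKi/CD40 tumors was 3.14, 3.14, 8.51 and 2.38, and Cxcl3 was 2.58, 2.46, 7.10 and 2.32. One tumor, MEKi/CD40 3, therefore carried nearly all of the signal of both genes, and neither was called. Outside that group the highest value of each came from anti-CD40 tumor 1 (3.69 for Cxcl2 and 3.39 for Cxcl3). The fifth member, Cxcl15, a lung chemokine, was at the floor in every tumor.

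Promoters are shown for Cxcl1, Cxcl2 and Cxcl3 because the cluster holds a gene called higher in both MEKi-treated groups beside close relatives that were not, with the same letters upstream of each. The sequences are those of RefSeq on GRCm38.p6 (250 bases before to 50 after the annotated start, plus strand, chr5:90890995-90891294, chr5:90903649-90903948 and chr5:90785851-90786150), with matches to the κB motif, the site bound by NF-κB, in capitals.
Cxcl1: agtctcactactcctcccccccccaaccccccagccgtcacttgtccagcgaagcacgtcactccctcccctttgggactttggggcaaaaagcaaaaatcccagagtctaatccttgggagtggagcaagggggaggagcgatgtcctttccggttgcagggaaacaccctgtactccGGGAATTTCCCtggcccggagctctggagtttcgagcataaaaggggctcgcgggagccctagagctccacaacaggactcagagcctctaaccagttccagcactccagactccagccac
Cxcl2: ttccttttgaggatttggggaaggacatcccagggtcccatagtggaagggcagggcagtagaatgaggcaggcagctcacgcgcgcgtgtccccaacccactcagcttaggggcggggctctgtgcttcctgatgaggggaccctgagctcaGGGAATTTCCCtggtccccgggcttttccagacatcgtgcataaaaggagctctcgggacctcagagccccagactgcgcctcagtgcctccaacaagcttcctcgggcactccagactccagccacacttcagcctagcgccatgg
Cxcl3: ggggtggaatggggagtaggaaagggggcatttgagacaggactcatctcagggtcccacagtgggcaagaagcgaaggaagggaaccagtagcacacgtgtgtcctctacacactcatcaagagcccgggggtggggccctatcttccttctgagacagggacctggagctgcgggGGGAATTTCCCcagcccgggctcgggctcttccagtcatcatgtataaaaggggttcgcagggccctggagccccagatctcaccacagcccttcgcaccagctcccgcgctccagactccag
Each window holds a single stretch, GGGAATTTCCC, in which a match on either strand overlaps the other, and it begins 71 bases before the start in Cxcl1, 97 in Cxcl2 and 73 in Cxcl3. The κB motif (searched on both strands, 10 bases long) was in 4.51% of the 32851 promoter windows of the table. Of the 33 ligands 23 had a window, and 7 of these held the motif (Ccl9, Ccl20, Ccl27a, Cxcl1, Cxcl2, Cxcl3 and Cxcl10). The motif was thus present in the windows of Cxcl1, which rose, and of Ccl20, which was at the floor in every tumor. The window of Cxcl12, which also rose, held no match to it. A match is a description of the letters only.

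**Figure D3:**
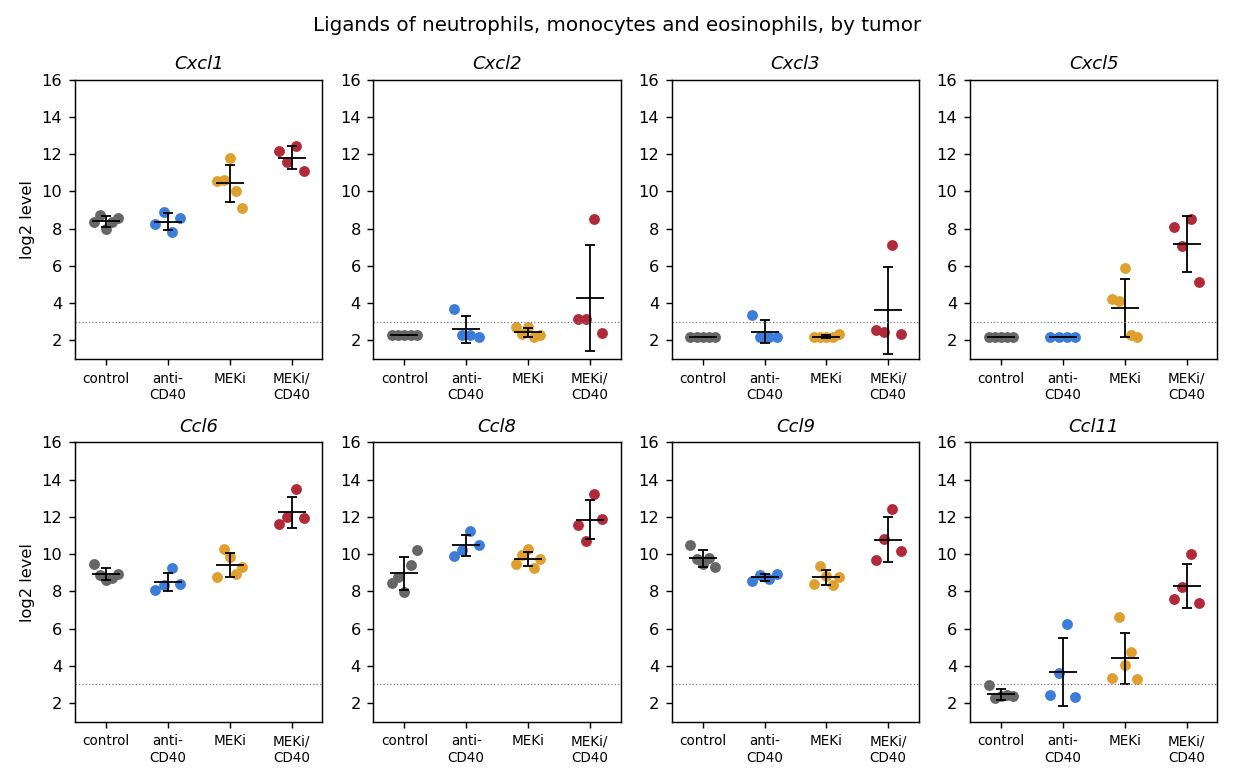
Log2 level (vertical axes) of 8 ligands of neutrophils, monocytes and eosinophils in each group (horizontal axes), with points for tumors, horizontal marks for means, bars for SD and a dotted line at the floor of 3. Cxcl1, Cxcl5, Ccl6, Ccl8 and Ccl11 have all 4 MEKi/CD40 tumors above all 5 controls, whereas Cxcl2 and Cxcl3 have 1 high tumor each.

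The panels for Cxcl2 and Cxcl3 show 1 high tumor behind an SD in MEKi/CD40 of 2.83 and 2.33, where that of Cxcl1 was 0.61. Markers of neutrophils themselves moved in part: of 11 measured, S100a8 and S100a9, calcium-binding proteins of neutrophils and monocytes, were called higher with MEKi/CD40 (by 5.59 and 4.88, adjusted p = 0.0019 and 0.00111) and with MEKi (by 2.81 and 2.77). Cxcr2, the receptor of these ligands, and Ngp, Camp, Ltf, Mpo and Elane were at the floor on all 18 arrays. The mean of the list ran from 3.52 to 3.70 in control and from 4.26 to 5.11 in MEKi/CD40, and its part in the ligand values was not tested. That rise rested largely on S100a8 and S100a9, as the median difference over the 11 genes was 0.01.

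CXCR3 ligands, which interferon-γ induces and which attract activated T cells, gave 0 calls against control in any group. Cxcl9 (chr5:92321331-92328079) in control was 10.66, 11.85, 10.76, 12.11 and 12.52, and in anti-CD40 12.93, 13.31, 13.87 and 13.48. MEKi tumors had 11.21, 11.44, 9.95, 10.68 and 11.65, and MEKi/CD40 tumors 12.74, 12.12, 13.98 and 13.22. All 4 anti-CD40 tumors were above all controls and all MEKi tumors, yet the difference of 1.82 ± 0.44 from control was not called (adjusted p = 0.628). MEKi against anti-CD40 was, with Cxcl9 lower by 2.41 ± 0.38 in MEKi (5.32-fold, adjusted p = 0.0219), a call lost without anti-CD40 tumor 2, 3 or 4 or MEKi tumor 1 (adjusted p up to 0.0697) and with a block for the title numbers (-2.07, adjusted p = 0.119).

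With MEKi/CD40 the difference of Cxcl9 from control was 1.44 ± 0.53 (adjusted p = 0.133), and a second, dimmer probe set of the gene gave 2.14 (adjusted p = 0.0494). Cxcl10 spanned 12.92 to 14.05 in control and 13.26 to 14.93 over the other 3 groups. Cxcl11, which the C57BL/6J reference annotates as a transcribed pseudogene, spanned 5.82 to 7.85 in control and 6.93 to 9.96 in MEKi/CD40, where 9.96 was tumor 3. Their receptor Cxcr3 had group means of 5.49 in control, 6.45 in anti-CD40, 5.93 in MEKi and 5.85 in MEKi/CD40, with 0 calls against control. Beside these, T cell markers had a list mean of 4.50 to 5.91 in control and 5.42 to 6.98 in anti-CD40, with 0 of 9 called, and Cd4 was at the floor throughout.

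The promoter of Cxcl10 is shown because it is the only ligand window with both the κB motif and the interferon-stimulated response element ISRE (a GAAA, any 2 bases and another GAAA, on either strand, in 3.44% of all windows). Both are in capitals (GRCm38.p6, minus strand, chr5:92348840-92349139).
Cxcl10: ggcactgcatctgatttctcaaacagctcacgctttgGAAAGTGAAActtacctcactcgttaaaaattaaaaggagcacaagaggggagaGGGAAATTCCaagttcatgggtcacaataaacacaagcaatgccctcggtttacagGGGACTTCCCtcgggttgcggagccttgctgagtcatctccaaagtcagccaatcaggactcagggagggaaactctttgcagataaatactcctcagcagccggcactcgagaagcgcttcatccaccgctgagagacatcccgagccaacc
The ISRE match begins 213 bases before the start and the κB matches 159 and 103 bases before it. Of the other ligands, Cxcl14 held an ISRE match. The AP-1 letters TGANTCA, found in 7.81% of all windows, were in the windows of Cxcl10, Cxcl9, Ccl9, Ccl27a and Ccl28. In Cxcl9 and Ccl28 the match began 31 and 20 bases after the start.

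Among the monocyte attractants Ccl8 rose with MEKi/CD40 and Ccl2 fell with MEKi. Ccl8 (chr11:82115185-82116799), a ligand of CCR8 in the mouse that macrophages secrete, was 8.43, 8.79, 7.98, 9.40 and 10.21 in control and 9.92, 10.21, 11.26 and 10.51 in anti-CD40. It was 9.49, 9.94, 10.27, 9.27 and 9.74 in MEKi and 11.57, 10.71, 13.24 and 11.88 in MEKi/CD40. Only the MEKi/CD40 tumors were all above the controls, by 2.89 ± 0.62 (7.40-fold, adjusted p = 0.0209). Omission of 1 tumor ended this call for controls 1, 2 and 3 and MEKi/CD40 tumors 1 and 4 (adjusted p up to 0.0546). So did omission of the 3 tumors rich in adipocyte markers (difference 3.44, adjusted p = 0.0603) and a block for the title numbers (3.24, adjusted p = 0.0692).

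Ccl2 (chr11:82035577-82037452), the chief ligand of CCR2, was above the floor in every tumor, at 13.08, 12.74, 13.25, 12.82 and 12.57 in control and at 11.99, 12.24, 11.60, 12.36 and 12.19 in MEKi. The 2 groups did not overlap, and Ccl2 fell by 0.82 on the log2 scale (1.76-fold, SE 0.18, adjusted p = 0.0299), which did not pass when control 1, 2, 3 or 4 or MEKi tumor 1, 2 or 5 was omitted (adjusted p up to 0.0761). In MEKi/CD40 it was 12.14, 11.81, 13.48 and 12.47, across the control range, and in anti-CD40 13.22, 12.70, 12.74 and 12.34. Ccl7 and Ccl12, which share CCR2 with it, spanned 9.51 to 12.11 and 9.74 to 12.07 over all tumors, with 0 calls in any comparison. Ccr2 itself had a mean of 9.46 in control and 8.42 to 8.87 in the treated groups, not called in any.

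The CC ligands grouped around CCR1 divided. Ccl6 and Ccl9, neighbors on chromosome 11 and ligands of CCR1 in rodents, had a called interaction of the drugs, and only Ccl6 was also called between groups, while Ccl3, Ccl4 and Ccl5 gave 0 calls. Ccl6 (chr11:83587886-83593087), a product of macrophages and other myeloid cells, was 9.48, 8.86, 8.63, 8.74 and 8.94 in control, 8.08, 8.33, 9.23 and 8.38 in anti-CD40, and 8.76, 10.27, 9.86, 8.93 and 9.31 in MEKi. MEKi/CD40 tumors gave 11.62, 11.98, 13.48 and 11.92, and all 4 were above each of the other 14. The rise was 3.32 ± 0.39 against control (9.99-fold, adjusted p = 0.00239), 2.82 ± 0.48 against MEKi (7.08-fold, adjusted p = 0.0361) and 3.75 ± 0.47 against anti-CD40 (13.4-fold, adjusted p = 0.00639).

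The interaction of Ccl6, the effect of adding the antibody under the inhibitor less that without it, was 3.25 ± 0.55 (adjusted p = 0.0099). It was positive and called in each of 18 runs without 1 tumor (2.84 to 3.49). A second probe set of Ccl6 gave 3.63 (adjusted p = 0.0105). The call against MEKi was less firm, kept only without MEKi/CD40 tumor 3 and lost in the other 8 runs (adjusted p up to 0.0930). MEKi/CD40 tumor 3 did not decide the values, since without it the difference of Ccl6 from control was 2.91 (adjusted p = 0.00113).

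Ccl9 (chr11:83572917-83578636), a myeloid attractant also known as MIP-1γ, had group means on both sides of that of control. It was 10.49, 9.74, 9.49, 9.82 and 9.32 in control, 8.54, 8.88, 8.69 and 8.96 in anti-CD40 and 8.41, 9.39, 8.82, 8.35 and 8.77 in MEKi. With both drugs it was 9.70, 10.80, 12.45 and 10.15. The single drugs gave lower means than control and the combination a higher one, none of them called (MEKi -1.02, adjusted p = 0.0542), but the interaction was, at 3.03 ± 0.61 (adjusted p = 0.0191), and 2.47 (adjusted p = 0.00826) without MEKi/CD40 tumor 3. A second probe set of Ccl9 gave an interaction of 2.76 (adjusted p = 0.0288).

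Ccl5, a ligand of CCR1 made by T cells and NK cells, was 11.64 to 12.85 in control and 12.99 to 13.47 in MEKi. Ccl3 and Ccl4, inflammatory attractants of macrophages and T cells, spanned 6.46 to 7.87 and 6.65 to 7.96 in control and 5.79 to 10.14 and 6.31 to 8.91 in MEKi/CD40, with tumor 3 at the top of both. Ccr1, the receptor of Ccl6 and Ccl9, fell with MEKi by 2.94 on the log2 scale (SE 0.42, adjusted p = 0.00908). Its mean was 9.60 in control, 8.96 in anti-CD40, 6.66 in MEKi and 7.60 in MEKi/CD40, where it was not called (adjusted p = 0.109). Of 6 measured monocyte markers, 4 were called higher with MEKi/CD40, led by Plac8 (2.92), and the mean of the list ran from 9.02 to 9.78 in control and 11.22 to 11.86 in MEKi/CD40. Ccr2, the receptor of the monocyte attractants given above, went the other way, with lower means in the treated groups, not called.

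The eotaxins attract eosinophils through CCR3. Ccl11 (chr11:82057832-82062955), eotaxin-1, was higher in every MEKi/CD40 tumor than in any other. It was at the floor in all 5 controls (2.26 to 2.99) and gave 2.45, 3.63, 6.26 and 2.31 in anti-CD40 and 3.35, 6.65, 4.04, 4.72 and 3.31 in MEKi. The 4 MEKi/CD40 tumors had 7.59, 8.21, 9.99 and 7.36. Ccl11 was at least 39.1-fold higher than in control (difference 5.81 ± 0.53, adjusted p = 0.0012), a call kept in each of 9 runs without 1 tumor, and it was higher than in anti-CD40, where 2 of 4 tumors were at the floor (4.63 ± 1.06, adjusted p = 0.0403, a call kept only without anti-CD40 tumor 3 and lost in the other 7 runs, adjusted p up to 0.110). With MEKi against control the difference was 1.93 (adjusted p = 0.0989), and with MEKi/CD40 against MEKi 3.87 (adjusted p = 0.0636), neither called. Ccl24, eotaxin-2, was at the floor in every tumor, as were 4 of 5 eosinophil genes (Ccr3, Epx, Prg2 and Il5ra). The mean of that list was highest in MEKi/CD40 tumor 3, at 2.61.

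Of the other ligands of CCR4 and CCR8, receptors of regulatory and type 2 helper T cells, Ccl17 and Ccl22 passed the floor in few tumors and Ccl1 in none, whereas Ccl8, given above, was over it in every tumor. Ccl17 passed it in 2 tumors, control 4 (4.21) and MEKi/CD40 3 (3.62). Ccl22 did so in 3, namely anti-CD40 2 (3.10) and MEKi/CD40 2 and 3 (3.23 and 4.51), and its difference with MEKi/CD40 was 0.94 ± 0.39 (adjusted p = 0.188). At the floor throughout were also the receptors Ccr4 and Ccr8 and 2 of 5 regulatory T cell genes, Foxp3 and Il2ra. The mean of that list was 3.96 to 4.16 in control and 3.71 to 4.30 in MEKi/CD40. A gene at the floor does not show that its cells were absent.

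Cx3cl1, Cxcl16 and Xcl1 act on cells that patrol or reside in tissue, and Cx3cl1 and Cxcl16 are made as membrane-bound forms. Cx3cl1 (chr8:94772180-94782427), fractalkine, rose with MEKi. Its levels were 6.02, 6.12, 6.07, 5.07 and 6.15 in control and 5.50, 5.96, 5.20 and 5.96 in anti-CD40, against 8.00, 7.00, 7.44, 6.77 and 7.19 in MEKi and 7.63, 7.07, 6.09 and 7.38 in MEKi/CD40. All MEKi tumors were above all controls, by 1.39 ± 0.29 (2.63-fold, adjusted p = 0.0259), and in MEKi/CD40 the difference was 1.16 ± 0.37 (adjusted p = 0.0833). Omitting control 1, 2 or 3 or MEKi tumor 1 or 3 ended the MEKi call (adjusted p up to 0.0593). Cx3cl1 was also higher in MEKi than in anti-CD40, by 1.63 ± 0.28 (adjusted p = 0.0268), a call lost in 7 of 9 runs, those without MEKi 1 or MEKi 4 excepted, and with a block for the title numbers (1.85, adjusted p = 0.0952). A second, dimmer probe set of Cx3cl1 gave 0.63 against control and 0.71 against anti-CD40, neither called (adjusted p = 0.307 and 0.358). Its MEKi tumors (3.19 to 4.62) overlapped the controls (2.89 to 3.20), and the remaining sets were at the floor on all arrays.

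The receptor of fractalkine, Cx3cr1, on monocytes and macrophages, fell by 2.16 on the log2 scale with MEKi/CD40 (adjusted p = 0.0311), with a mean of 10.47 in control, 10.04 in anti-CD40, 9.02 in MEKi and 8.31 in MEKi/CD40. Cxcl16, the ligand of CXCR6, was 11.01 to 11.42 in anti-CD40 and 9.84 to 10.75 in MEKi, without overlap, and lower in MEKi by 1.10 ± 0.20 (adjusted p = 0.0292, a call kept only without anti-CD40 1 or MEKi 5, and lost with a block for the title numbers, adjusted p = 0.110). Against control neither group was called for it (control 10.46 to 11.32). Xcl1, which draws the cross-presenting dendritic cells that carry XCR1, was 4.73 to 6.09 in control and 4.38 to 4.70 in MEKi/CD40, below every control but not called, and Xcr1 was at the floor throughout.

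**Figure D4:**
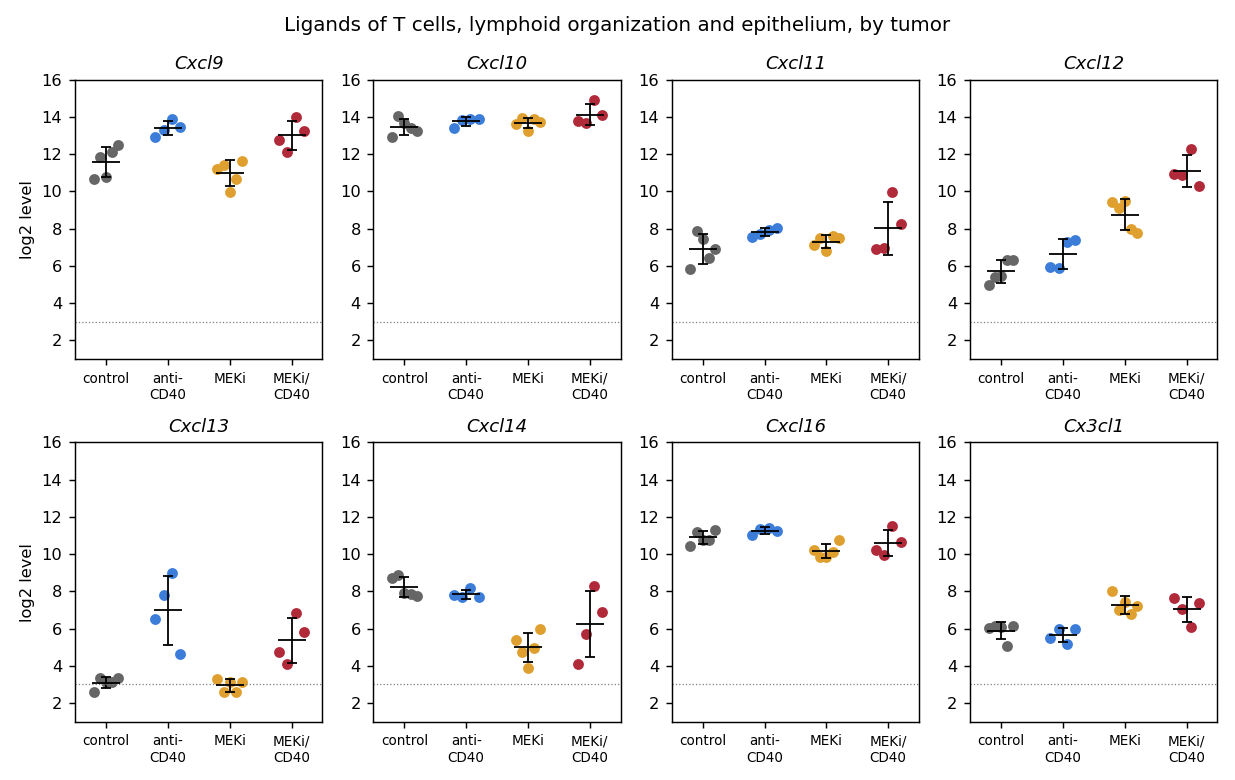
Log2 level (vertical axes) of 8 ligands of T cells, lymphoid organization and epithelium in each group (horizontal axes), with points for tumors, horizontal marks for means, bars for SD and a dotted line at the floor of 3. Cxcl12 steps up from control to MEKi to MEKi/CD40, Cxcl13 is above the controls in both antibody groups, and Cxcl14 is lowest in MEKi.

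In these panels Cxcl13 separates the groups by the antibody and Cxcl12 by the inhibitor. Cxcl12 (chr6:117168535-117181368), the stromal ligand of CXCR4 that retains cells in marrow and lymphoid tissue, had 4.97, 5.42, 5.46, 6.34 and 6.32 in control and 5.95, 5.91, 7.28 and 7.40 in anti-CD40. MEKi tumors stood at 9.44, 9.09, 9.49, 7.96 and 7.78 and MEKi/CD40 tumors at 10.93, 10.88, 12.29 and 10.29. No MEKi or MEKi/CD40 tumor overlapped the controls, and every MEKi/CD40 tumor was above every MEKi tumor. Cxcl12 rose by 5.40 ± 0.47 with MEKi/CD40 (42.1-fold, adjusted p = 0.00108) and by 3.05 ± 0.45 with MEKi (8.28-fold, adjusted p = 0.00959), and no run without 1 tumor lost either call.

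Against MEKi the further 2.35 ± 0.54 of the combination was not called (adjusted p = 0.0726, with Cxcl13 in the same comparison at 2.43 and 0.0665). A second probe set of Cxcl12 gave 4.87 and 4.01 (adjusted p = 0.000286 and 0.00434), and another was at the floor on all arrays. Cxcl12 was also the ligand whose MEKi/CD40 call was kept among tumors with title numbers under 7800 alone (2 controls against 4, difference 5.90, adjusted p = 0.0439). Its receptor Cxcr4 had a mean of 10.33 in control, 10.95 in anti-CD40, 9.42 in MEKi and 9.30 in MEKi/CD40, and was lower in MEKi/CD40 than in anti-CD40 by 1.65 (log2 difference -1.65, adjusted p = 0.0116).

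Cxcl13 (chr5:95956939-95961068), the B cell attractant of lymphoid follicles, followed the antibody. It was 2.60, 3.34, 3.12, 3.12 and 3.33 in control and 3.32, 2.58, 3.15, 2.59 and 3.12 in MEKi, close to the floor, but 6.53, 7.81, 8.99 and 4.66 in anti-CD40 and 4.76, 4.10, 6.85 and 5.80 in MEKi/CD40. By the probe set that stands for the gene, every tumor of both antibody groups was above every tumor without it. The difference from control was 3.90 ± 0.81 with anti-CD40, not called (adjusted p = 0.497), and 2.28 ± 0.54 with MEKi/CD40 (4.84-fold, adjusted p = 0.0292). MEKi was lower than anti-CD40 by 4.05 ± 0.81 (adjusted p = 0.0376), with 2 of 5 MEKi tumors at the floor.

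These Cxcl13 calls were fragile: the first was lost without any 1 of the controls or MEKi/CD40 tumor 4 (adjusted p up to 0.0795), and the second was kept only without anti-CD40 tumor 4 (otherwise up to 0.113) and was lost with a block for the title numbers (adjusted p = 0.168). The first was also lost with values below 5 raised to 5 (0.66, adjusted p = 0.441), with a block for the title numbers (2.41, adjusted p = 0.115) and without the 3 tumors rich in adipocyte markers (2.70, adjusted p = 0.0556). A second, dimmer probe set of Cxcl13 was called in neither comparison (adjusted p = 0.0888 and 0.177) and did not separate the groups. It was 2.63 to 2.64 in control and 2.64 in MEKi, against 2.64 to 5.90 in anti-CD40 and 2.64 to 3.95 in MEKi/CD40. The receptor Cxcr5 and 3 of 4 measured B cell genes (Cd79a, Ms4a1 and Cr2) were at the floor on all 18 arrays.

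Of 6 ligands of epithelial surfaces, Cxcl14 and Ccl25 were above the floor in every tumor, Ccl28 in 2 tumors and the other 3 in none. Cxcl14 (chr13:56288643-56296811), a chemokine of skin and other epithelia, was 8.74, 8.86, 7.92, 7.88 and 7.75 in control and 7.80, 7.68, 8.20 and 7.71 in anti-CD40. In MEKi it was 5.41, 4.75, 3.88, 4.95 and 6.00, below every control, and in MEKi/CD40 4.10, 5.72, 8.29 and 6.89. It fell by 3.23 on the log2 scale with MEKi (9.40-fold, SE 0.41, adjusted p = 0.00644, kept in each of 10 runs without 1 tumor). With MEKi/CD40 the difference was -1.98 ± 0.80 and not called (adjusted p = 0.174), but without tumor 3, at 8.29, it was -2.66 and called (adjusted p = 0.0366). MEKi was also lower than anti-CD40, by 2.85 (difference -2.85 ± 0.40, adjusted p = 0.0197, lost without anti-CD40 tumor 2 or 3 and with a block for the title numbers, adjusted p = 0.0955). Beside this, the mean of 7 epidermal markers was 3.53 to 3.83 in control and 3.88 to 5.33 in MEKi, and their part in the Cxcl14 values was not tested.

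Ccl25, a ligand of gut-homing T cells, spanned 5.67 to 6.82 over all tumors, with 0 calls. Ccl28, a ligand of mucosal lymphocytes, passed the floor only in control 4 (3.71) and MEKi 5 (3.02). Ccl20, Ccl27a and Cxcl17 were at the floor in every tumor, as were the receptors Ccr6 and Ccr10.

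Did markers of cells that make these ligands move with them? Fibroblast markers did, with 8 of 8 called higher with MEKi/CD40 and 5 of 8 with MEKi, led by Lum, a collagen-binding proteoglycan (6.16 and 3.93). The mean of the list was 10.38 to 11.08 in control, 10.86 to 11.74 in anti-CD40, 11.95 to 12.89 in MEKi and 13.24 to 13.48 in MEKi/CD40. By group means this was the order in which Cxcl12 and Ccl11 stood. It was not particular to fibroblasts. The monocyte, neutrophil, adipocyte, epidermal, endothelial and lymphatic endothelial lists had group means in the same order. Macrophage markers were called lower in 1 of 10 with MEKi/CD40 and in 4 of 10 with MEKi, led by Mrc1, a mannose receptor (-2.80), and their mean ran from 11.18 to 11.64 in control and from 10.10 to 10.95 in MEKi. How far these lists account for any ligand was not tested.

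**Figure D5:**
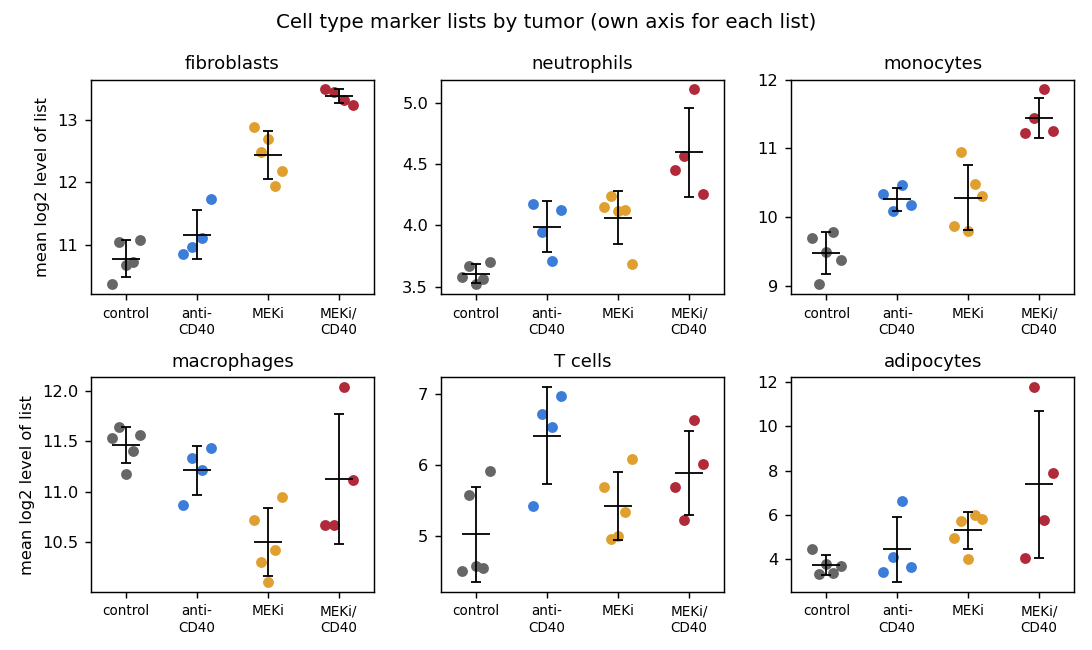
Mean log2 level (vertical axes, own scale for each list) of the markers of 6 cell types in each group (horizontal axes), with points for tumors, horizontal marks for means and bars for SD. Fibroblast, monocyte and neutrophil lists are above all controls in every MEKi/CD40 tumor, and the adipocyte list reaches 11.77 in 1 MEKi/CD40 tumor. The neutrophil list rises largely through S100a8 and S100a9.

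The panel of adipocytes shows 1 tumor far above the rest, so the calls were repeated without the 3 tumors highest for that list. In MEKi/CD40 against control 6 ligands were then called, among them Cxcl1, Cxcl5, Ccl6, Ccl11 and Cxcl12, whose differences were 3.90, 6.11, 3.62, 6.31 and 5.91, and Ccl27a, below 3 in every tumor.

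Among tumors with title numbers under 7800, the MEKi/CD40 differences from control were 3.28 for Cxcl1, 5.01 for Cxcl5, 3.08 for Ccl6, 5.66 for Ccl11 and 5.90 for Cxcl12, but with 2 controls only Cxcl12 was called. The MEKi differences in the 2 series, under and above 7800, were 2.05 and 2.00 for Cxcl1, 4.07 and 2.37 for Cxcl12, 1.43 and 1.37 for Cx3cl1, -3.72 and -2.91 for Cxcl14 and -0.80 and -0.83 for Ccl2. None of these was called within a series (2 against 2 and 3 against 3 tumors). Each had the sign of the pooled value, but it could not differ. For these ligands no MEKi tumor overlapped the controls, so any subset of the tumors gives the same sign.

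Of the 16 chemokine receptors measured, 8 were at the floor on all arrays. With MEKi/CD40 against control 0 receptors rose and 1, Cx3cr1, fell, and with MEKi 0 rose and 1, Ccr1, fell. Of all genes, 12% were called lower with MEKi/CD40 and 5.09% with MEKi, and 7.65% and 6.08% higher. Of 15 cytokines known to induce chemokines, Ifnb1, Il17a, Il4, Il13, Il10, Csf2, Csf3 and Lta were at the floor throughout. Il6, an inflammatory cytokine of stroma and myeloid cells, was the only one called, with MEKi/CD40 against control (2.62 ± 0.57, adjusted p = 0.022), from a mean of 3.77 in control to 6.39. Tnf, Il1b and Ifng, classical inducers of CXCR2 and CXCR3 ligands, had means of 5.53, 7.85 and 4.52 in control and 5.76, 7.61 and 5.91 in MEKi/CD40, not called.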

How the data were processed

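RNA of 18 whole tumors was read on Affymetrix whole-genome mouse arrays. The deposited table holds log2 values made by the authors with RMA per the labels' processing notes (version not given), 45101 probe sets by 18 arrays, from 2.16 to 16.34, with 50.3% to 51.6% of each array below 3. That many tied low values are unlike plain RMA output, and the step that gave them is unknown, so values and folds near the floor may not scale with RNA. All 18 columns were matched to samples and used (0 columns had no sample).

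The 64 control probe sets were left out, and the other 45037 entered the fit unfiltered. Groups were taken from the labels and compared in pairs with limma 3.58.1 in R 4.3.3 (lmFit, eBayes), and the interaction over all 4 groups, with Benjamini-Hochberg adjustment over all probe sets and a threshold of 0.05. Residual degrees of freedom were 6 to 8, and 14 for the interaction. The fit was tested on simulated data. Of a gene's single-symbol probe sets the brightest by mean stood for it, x_at sets avoided (13 ligands had several). Replicate numbers paired no samples, with correlations of same-numbered deviations of -0.31 to 0.28. Array precision is limited by tumor number, since each array is 1 mouse.

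Members and lists were chosen with earlier results of these data known. Statistics were given for called ligands and, in a role group with no call, for at most the ligand with the smallest p. Cxcl14 and Cxcl12 against other groups, second probe sets and the series above 7800 were added after their values were seen. Another 15 ways of processing were tried.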

Additional observations from a re-analysis of the deposited data

Results flagged for a closer look

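In 95 groups of 4 or 5 tumors with a ligand above the floor, 10 single tumors lay far from the rest of their group by Dixon's test. Its chance rate of about 1 in 20 does not hold where the other tumors were tied or close together near the floor. There a single value off the floor can be flagged whatever its size. This applies to the flags of Ccl17, Ccl22, Ccl28, Cxcl2 and Cxcl3. Control 4 stood out for 3 genes: Ccl17 at 4.21 (others 2.48), Ccl28 at 3.71 (others 2.64 to 2.66) and Cx3cl1 at 5.07 (others 6.02 to 6.15). MEKi/CD40 tumor 3 was far above its group for Cxcl2 at 8.51 (others 2.38 to 3.14), Cxcl3 at 7.10 (others 2.32 to 2.58) and Ccl17 at 3.62 (others 2.48 to 2.49). Anti-CD40 tumor 1 was above its group for Cxcl2 at 3.69 and Cxcl3 at 3.39 and below it for Cxcl10 at 13.39 (others 13.85 to 13.91). Ccl22 was 3.10 in anti-CD40 tumor 2 (others 2.44 to 2.55).

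The effect of adding the antibody differed between tumors with and without the inhibitor for Ccl6 (3.25) and Ccl9 (3.03), by the interaction term of limma (adjusted p = 0.0099 and 0.0191).

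A probe set shared by Ccl19, Ccl19-ps1 and 8 predicted genes, and so left out of the ligands, was higher in MEKi/CD40 than in control by 2.33 (adjusted p = 0.0359). Its group means were 2.21 in control, 2.30 in anti-CD40, 2.21 in MEKi and 4.53 in MEKi/CD40, where its tumors ran from 3.29 to 6.46.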

How the results depend on the processing

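Counts of called ligands moved with the processing. For single called ligands, 409 of 566 values stayed the same and 157 were weaker, as where a call was lost. No difference changed sign in any of the 566, all of them refits of the same tumors. Of 169 counts, 119 stayed within 1.5 times, 42 were smaller and 8 larger. The counts include anti-CD40 against control, which was 0 in every setting. Leaving out 1 tumor gave 5 to 10 calls for MEKi/CD40 against control, 2 to 5 for MEKi against control, 0 for anti-CD40 against control, 0 to 1 for MEKi/CD40 against MEKi, 4 to 7 against anti-CD40, 0 to 5 for MEKi against anti-CD40 and 2 to 3 for the interaction.

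With the replicate number as a block, which pairs no samples here, the counts were 0 for MEKi/CD40 against control (7 without it), 0 for MEKi against control, 0 for MEKi/CD40 against MEKi, 2 against anti-CD40, 0 for MEKi against anti-CD40 and 1 for the interaction. Within title numbers under 7800, with fewer tumors, they were 1 for MEKi/CD40 against control, 0 for MEKi against control, 0 for MEKi/CD40 against MEKi, 1 for MEKi against anti-CD40 and 0 for the interaction, and above 7800 there were 0 for MEKi against control (added after seeing the data). The number series as a block gave 0 for MEKi/CD40 against MEKi and 0 for MEKi against anti-CD40, and could not be fitted for MEKi/CD40 against anti-CD40.

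One fit of all 4 groups called 12 ligands for MEKi/CD40 against control, 8 against MEKi and 8 against anti-CD40. Of all 45037 probe sets it called 9698, 4286 and 8996, where the main fits called 6698, 1127 and 5231. Leaving out probe sets below 5 in most arrays, so that fewer were tested, gave 11 for MEKi/CD40 against control, 10 for MEKi against control, 9 for MEKi/CD40 against MEKi and 10 for MEKi against anti-CD40. Only 22 ligands and 19042 probe sets were then tested, and 8594, 6099, 2952 and 4962 of these probe sets were called. The higher ligand counts of both settings thus came with more calls over all probe sets. An intensity trend with robust moderation gave 3 for MEKi against control, 0 for MEKi/CD40 against MEKi and 0 for MEKi against anti-CD40. For MEKi/CD40 against MEKi, values raised to 5 and an adipocyte covariate each gave 0. Without the 3 tumors rich in adipocyte markers, it gave 0, MEKi/CD40 against anti-CD40 gave 2 and MEKi against anti-CD40 gave 0. The mean of a gene's probe sets gave 8 for MEKi against anti-CD40. Apart from fewer probe sets or tumors, the cause was not tested. Values near the floor of 3 limit Cxcl2, Cxcl3, Cxcl5, Ccl11 and Cxcl13.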

Other observations

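Some genes act beside the chemokine ligands but fall outside the rule. The atypical receptors, which scavenge chemokines, had 0 of 5 called in MEKi/CD40 against control, with Ackr2 at the floor on all arrays. Ackr3, a scavenger of CXCL12, was nearest to a call there (1.47, adjusted p = 0.0549). The platelet chemokines Pf4 and Ppbp had 0 calls in the same comparison.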
